A study of Mus musculus with 6 samples.

Results

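The genes described here encode the extracellular signals that induce osteoclasts, the cells that resorb bone: Tnfsf11 (RANKL), its receptor Tnfrsf11a (RANK), its decoy receptor Tnfrsf11b (osteoprotegerin, OPG), and Csf1 and Il34, the ligands of the macrophage growth factor receptor. The 5 genes were taken by name from a count table of 22032 genes, and all 5 passed the low-count filter that kept 14632 genes for testing. The table covers temporomandibular joint tissue, the joint between lower jaw and skull, from mice 10 weeks old: 3 libraries of Igf2bp2 knockout mice (KO) and 3 of wild-type littermates (WT), with no treatment named. IGF2BP2 binds RNAs, among them m6A-modified ones, and the title of the study ties it to loss of bone under the joint cartilage through FOS, PPARγ and NFATC1. The labels do not give the deleted part of Igf2bp2, the sex of the mice, whether tissue of several mice was pooled, or which parts of the joint were taken.

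Osteoclasts form by fusion of cells of the monocyte and macrophage lineage. CSF1 or IL-34, acting on the receptor CSF1R, keeps these precursors alive and lets them express RANK, and RANKL from osteocytes, osteoblasts, stromal cells or lymphocytes then drives them to differentiate. RANK recruits the adaptor TRAF6, which activates NF-κB and, with calcium signals from ITAM-bearing co-receptors, FOS and NFATC1. OPG is a secreted protein that binds RANKL and keeps it from RANK, so the balance of RANKL and OPG is a classical readout of how strongly a tissue favours bone resorption. Several of these ligands are also shed or spliced into soluble forms, which a count per gene cannot tell apart.

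Each library held between 28551236 and 35094127 counts, but mitochondrial genes took 85.3% to 90.8% of them. The nuclear total was 4604575 to 4899680 in KO and 2625472 to 3205190 in WT, so the members rest on few counts. In the median gene the spread between KO 1 and KO 3 was below that of sampling read pairs, and so was that between WT 2 and WT 3 (median variance ratios 0.94 and 0.96, against 1.31 to 1.63 for the other pairs within a group), and each pair was summed and counted as 1 sample, giving n = 2 per group. A fit without KO 2 or without WT 1 therefore holds 1 sample of that group and takes the spread from the other group. Expression is given in CPM, counts scaled to libraries of equal size with trimmed-mean (TMM) factors. Differences are log2 fold changes of KO against WT from edgeR's quasi-likelihood test, with the Benjamini-Hochberg false discovery rate (FDR) over all 14632 genes, and a gene was called at an FDR under 0.05. Counts of Igf2bp2 itself were 13, 14 and 10 in the KO libraries, in the order 1 to 3 used for all values per library, and 38, 20 and 24 in the WT libraries, a change of -1.80 (SE 0.39, edgeR FDR 0.00589), so the targeted transcript was reduced but still counted in KO.

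None of the 5 members was called. The background share was 17.6% of all tested genes, 9.15% higher and 8.48% lower in KO. At an unadjusted p under 0.05, 0 of the 5 passed by edgeR, and DESeq2 and limma-voom also called 0. With the 6 libraries as separate samples, edgeR tested 4 of them and called 0, although 2 (Tnfrsf11b and Csf1) had an unadjusted p under 0.05. With 5 genes and a background of 17.6%, a count of 0 is not a result about the members. Their median log2 fold change was -0.21, beside -0.0097 over all tested genes. The estimate was below 0 for 4 of them and above 0 for Tnfrsf11b.

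**Figure D1:**
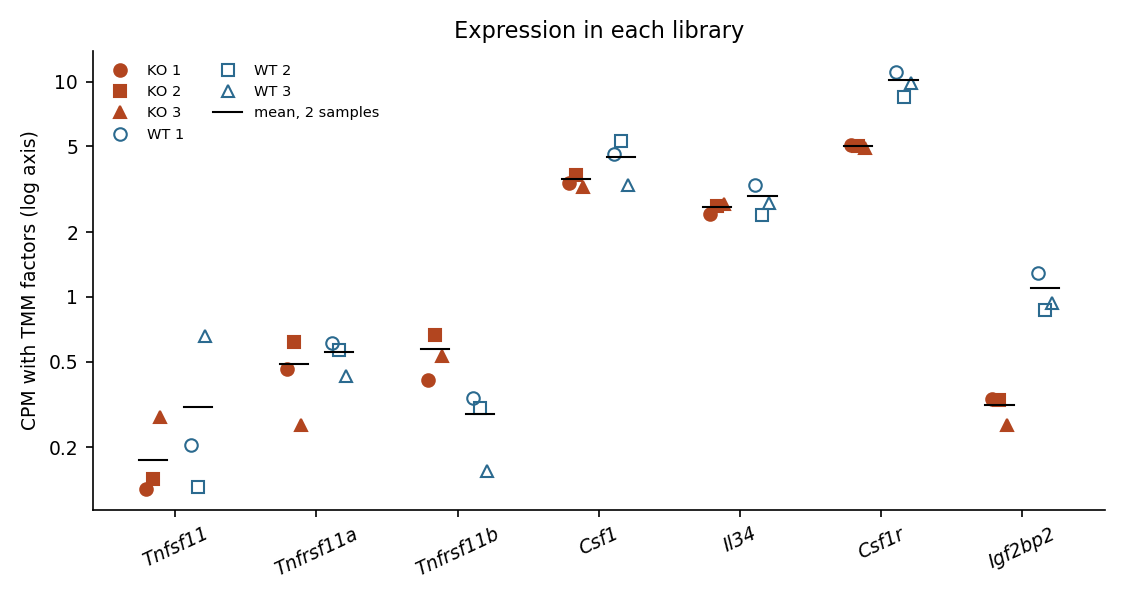
Expression of the 5 members, the receptor gene Csf1r and the targeted gene Igf2bp2 in each of the 6 libraries, as CPM with TMM factors on a log axis; filled symbols are KO, open symbols WT, and the bar is the mean of the 2 samples of a group. KO and WT libraries overlap for Tnfsf11, Tnfrsf11a, Csf1 and Il34, and do not for Tnfrsf11b, Csf1r and Igf2bp2.

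Tnfsf11, the gene of RANKL, was the member with the fewest counts. It had 5, 6 and 11 counts in the KO libraries and 6, 3 and 17 in the WT libraries. WT 3 was the highest library and WT 2 the lowest in counts, so the groups overlapped and the spread within WT was wider than the gap between the groups. WT 2 and WT 3 were summed because their libraries were alike in the median gene, but in this gene they stood apart. As CPM, Tnfsf11 was at 0.174 ± 0.0438 in KO and 0.309 ± 0.147 in WT (SD, n = 2). The log2 fold change was -0.84 (95% interval -2.12 to 0.44, edgeR FDR 0.38), an interval that reaches from 0.230-fold to 1.35-fold of the WT level. The interval includes no change as well as a fall and a rise of RANKL transcripts, and it is not a limit of detection. The gene was tested in 8 of the 14 other settings and failed the filter in the rest, among them the fit on 6 separate libraries.

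Tnfrsf11b, the gene of the decoy receptor OPG, had the largest estimate of the members and the only one above 0. It had 16, 28 and 21 counts in the KO libraries and 10, 7 and 4 in the WT libraries. Every KO library was above every WT library, also in CPM, where KO libraries were at 0.411, 0.663 and 0.531 and WT libraries at 0.34, 0.305 and 0.155. Such a separation in the same direction was seen in 19.2% of all tested genes, and in the opposite direction in 19.1%, so a separation like this one was common in these libraries. The group levels were 0.570 ± 0.136 CPM in KO and 0.285 ± 0.0812 in WT (SD, n = 2). The log2 fold change of 1.01 (SE 0.48, 95% interval -0.03 to 2.06) had an edgeR p of 0.0558 and an FDR of 0.179, so the gene was not called. The interval spans 0.980-fold to 4.17-fold of the WT level. In the DESeq2 Wald test the FDR was 0.466, and without KO 2 it was 0.608 by edgeR, at a change of 0.77.

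Tnfrsf11a, the gene of RANK, which marks osteoclasts and their precursors, was close to level between the groups. The KO libraries had 18, 26 and 10 counts and the WT libraries 18, 13 and 11. The highest and the lowest library in CPM were both KO libraries, KO 2 at 0.616 and KO 3 at 0.253, and the WT libraries lay between them. The levels were 0.489 ± 0.184 CPM in KO and 0.556 ± 0.0849 in WT (SD, n = 2), with a log2 fold change of -0.21 (95% interval -1.18 to 0.75, edgeR FDR 0.806). KO 1 and KO 3, summed as 1 sample, differed for this gene as well, and without 1 library the change was -0.61 (KO 2) to -0.016 (KO 3).

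The ratio of Tnfsf11 to Tnfrsf11b was taken within each library, because it does not depend on how the libraries are scaled. Counts were divided by the length of the longest transcript, after adding 0.5 to each count. The ratio was 0.42, 0.287 and 0.674 in the KO libraries and 0.78, 0.588 and 4.90 in the WT libraries. OPG transcripts thus outnumbered RANKL transcripts per length in all KO libraries and in WT 1 and WT 2, and WT 3 was the exception. The mean log2 ratio was -1.32 ± 0.67 in KO and 0.40 ± 1.08 in WT (SD, n = 2), a difference of -1.73. An exact two-sided permutation test gave p = 0.333, the smallest value that 2 samples against 2 allow. Over the 6 libraries, in which KO 3 lay above WT 2, the difference was -1.60 and the exact permutation p was 0.2, where 0.1 is the smallest possible. Without WT 3, which had 17 counts of Tnfsf11 and 4 of Tnfrsf11b, the difference was -0.76.

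**Figure D2:**
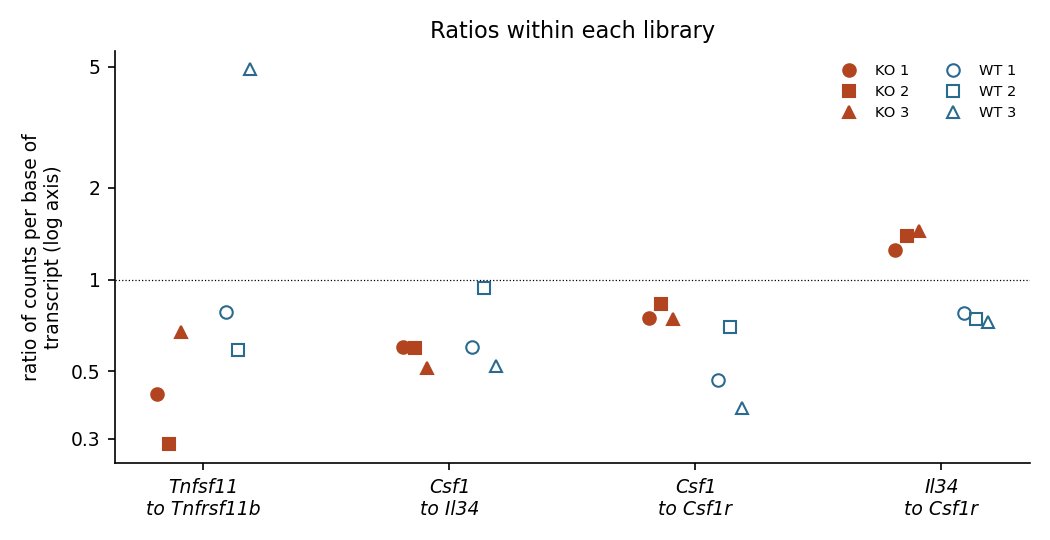
Ratio of counts per base of transcript between pairs of genes in each of the 6 libraries, on a log axis with a dotted line at 1; filled symbols are KO, open symbols WT. The Tnfsf11 to Tnfrsf11b ratio overlaps between groups and reaches 4.90 in WT 3, while the Il34 to Csf1r ratio is 1.25 to 1.44 in KO and 0.728 to 0.779 in WT.

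Csf1, which encodes the main growth factor of macrophages and osteoclast precursors, was far better covered than the RANKL genes. It had 131, 156 and 128 counts in the KO libraries and 136, 121 and 85 in the WT libraries. In CPM, WT 1 and WT 2 at 4.63 and 5.28 were above all KO libraries, while WT 3 at 3.30 fell among them (3.37, 3.70 and 3.24 in KO). The levels were 3.52 ± 0.281 CPM in KO and 4.45 ± 0.281 in WT (SD, n = 2). The log2 fold change was -0.34 (SE 0.17, 95% interval -0.70 to 0.01, edgeR FDR 0.182). With TMM scaling the interval spans 0.616-fold to 1.01-fold of the WT level. With counts scaled to the library total alone the log2 estimate was 0.21, which is outside it. Without WT 3 the change was -0.51 (FDR 0.0652), and without WT 2 it was -0.20 (FDR 0.574).

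Il34, the gene of the other CSF1R ligand, known for its role in skin macrophages and microglia, had 94, 112 and 107 counts in the KO libraries and 97, 55 and 70 in the WT libraries. WT 1 was the highest library in CPM at 3.30 and WT 2 the lowest at 2.40, so the WT libraries enclosed all KO libraries. The levels were 2.62 ± 0.0658 CPM in KO and 2.95 ± 0.521 in WT (SD, n = 2), and the log2 fold change was -0.16 (95% interval -0.58 to 0.26, edgeR FDR 0.651). Without WT 1 the estimate was 0.031. With TMM scaling a change of Il34 beyond 0.670-fold or 1.20-fold lies outside the interval. With counts scaled to the library total alone the log2 estimate was 0.39, which is outside it. On the other strand Il34 overlaps 2 gene models, of which 1 is in the count table with 4 counts over the 6 libraries; no annotated gene overlaps the other 4 members.

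Per kilobase of the longest transcript, the growth factor genes stood well above the RANKL genes in both groups. Il34 came first with 1.46 ± 0.0366 CPM per kilobase in KO and 1.64 ± 0.290 in WT, followed by Csf1 with 0.842 ± 0.0674 and 1.07 ± 0.0673 (SD, n = 2). Next in KO was Tnfrsf11b with 0.202 ± 0.0484, then Tnfrsf11a with 0.0972 ± 0.0366 and Tnfsf11 with 0.0778 ± 0.0196. In WT these genes were at 0.101 ± 0.0288, 0.111 ± 0.0169 and 0.138 ± 0.0657 in the same order. The ranges of mean ± SD of those last 3 genes overlapped in WT, as did those of Tnfrsf11a and Tnfsf11 in KO. The Csf1 to Il34 ratio per length, with 0.5 added to each count, was 0.598, 0.598 and 0.514 in the KO libraries and 0.602, 0.942 and 0.522 in the WT libraries. Its log2 difference was -0.18 (exact permutation p = 0.333, the smallest possible with 2 samples per group), and without WT 2 it was 0.039.

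Csf1r, the receptor that CSF1 and IL-34 share, was lower in KO. It is made by macrophages and osteoclast precursors, and it is not one of the 5 members. The KO libraries had 197, 212 and 195 counts and the WT libraries 327, 195 and 253. In CPM the KO libraries lay at 4.93 to 5.06 and the WT libraries at 8.50 to 11.1, without overlap. The levels were 5.03 ± 0.0201 CPM in KO and 10.2 ± 1.37 in WT (SD, n = 2), and the log2 fold change was -1.01 (SE 0.14, 95% interval -1.32 to -0.71, edgeR FDR 0.000216). The call was kept in all 14 other settings, at -1.07 to -0.47. Hmgxb3, a gene that overlaps Csf1r in the annotation, had 694 counts over the 6 libraries, and the sources used here do not state how reads of overlapping genes were assigned.

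The ratio of each ligand to this receptor, chosen after the values of Csf1r had been seen, lay higher in KO. The exact permutation p was 0.333 for each with 2 samples per group and 0.1 over the 6 libraries, both the smallest possible, and is no support for a ratio chosen in this way. Il34 to Csf1r per length was 1.25, 1.39 and 1.44 in the KO libraries and 0.779, 0.743 and 0.728 in the WT libraries, without overlap. Csf1 to Csf1r was 0.75, 0.829 and 0.74 in the KO libraries and 0.469, 0.7 and 0.38 in the WT libraries. The ligand genes did not pass any test of their own, and the receptor enters both ratios. In bulk tissue, fewer receptor-bearing cells and less receptor RNA per cell cannot be told apart. In the same libraries 9 of 14 macrophage markers, Csf1r among them, were lower in KO and none higher, with a summed level of 63.5 to 67.0 CPM in KO and 101 to 123.2 in WT. Without KO 2, 6 of these markers were lower, and with total counts and no factors 4. The part of these cells in the Csf1r difference was not tested.

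**Figure D3:**
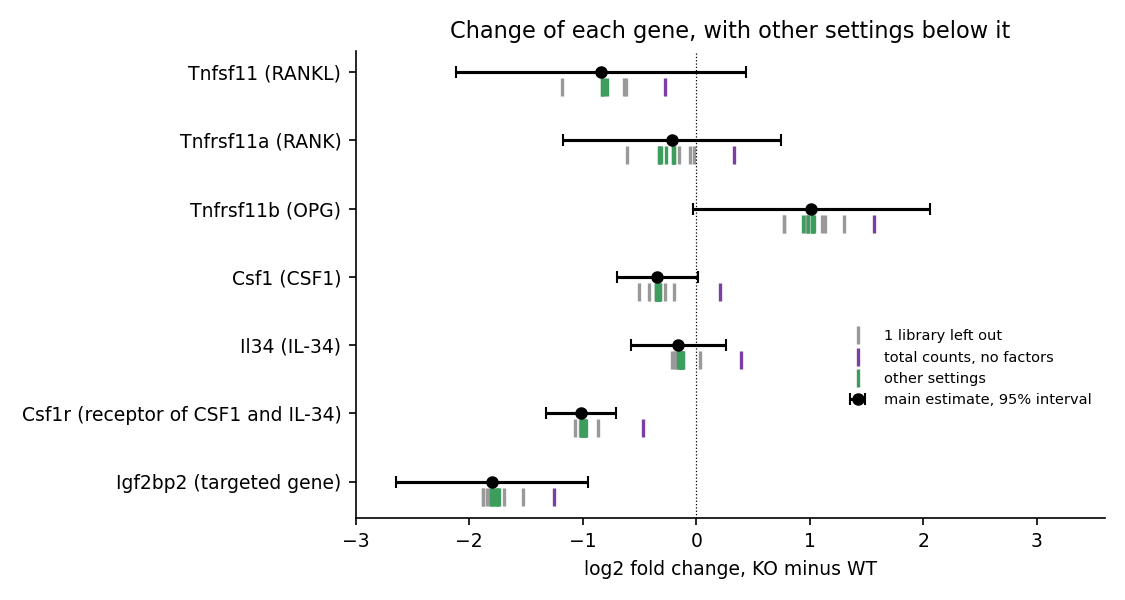
Log2 fold change of KO against WT for the 5 members, Csf1r and Igf2bp2, as the main estimate with its 95% interval (black) and, below it, the estimates with 1 library left out (grey), with total counts and no scaling factors (purple) and in the other settings (green). The intervals of the 5 members include 0 and those of Csf1r and Igf2bp2 do not; with total counts the estimates of Tnfrsf11a, Csf1 and Il34 lie above 0.

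The direction of Csf1, Il34 and Tnfrsf11a depended on the scaling. TMM and DESeq2 factors and a fit without mitochondrial genes gave the same signs. With counts scaled to the library total alone, an alternative added after the data had been seen, the median of all tested genes moved to 0.54; mitochondrial genes took 90.6% to 90.8% of the WT counts and 85.3% to 86.0% of the KO counts. On that scale the changes were 0.21 for Csf1, 0.39 for Il34 and 0.33 for Tnfrsf11a, none called. Relative to the shifted median they were -0.34, -0.15 and -0.21. Tnfrsf11b was called on that scale (1.56, edgeR FDR 0.0147), and relative to the shifted median it was at 1.02. Tnfsf11 was at -0.28, or -0.82 relative to the median.

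Genes that carry, induce or modify these signals were described by 8 lists. The lists hold 126 tested genes, of which 13 were called higher and 14 lower in KO, a share of 21.4% beside the 17.6% of all tested genes. Without KO 2 these counts were 5 higher and 6 lower of 132 tested, and with the DESeq2 Wald test 10 and 7 of 126. The 6 libraries as separate samples gave 16 and 24, and total counts with no factors 57 and 4. In each of these settings the called share of all tested genes moved in the same direction as that of the lists. With the DESeq2 Wald test it was 11.2%, beside 13.5% of the list genes. With total counts and no factors it was 52.8%, beside 48.4% of the list genes. The median log2 fold change of these genes was -0.11. Among adaptors of RANK and the NF-κB arm 1 of 22 tested genes rose and 1 fell, with a list median of -0.082. Nfkbia, which encodes the NF-κB inhibitor IκBα, rose by 0.59 (edgeR FDR 0.00226), and Relb, a subunit of the noncanonical NF-κB complex, had a change of -0.78 (FDR 0.0240). The adaptor gene Traf6 was at 3.21 ± 0.987 CPM in KO and 3.33 ± 0.311 in WT (SD, n = 2). Without KO 2 neither Nfkbia nor Relb was called (FDR 0.0906 and 0.0569), and Relb was also lost without WT 3 (FDR 0.055), with the DESeq2 Wald test (FDR 0.128) and with total counts (FDR 0.407).

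In the ITAM co-stimulation and calcium arm 1 of 12 tested genes fell and none rose, with the list median at -0.61. The co-receptor genes Oscar, Pira2 and Sirpb1a of this list were too low to test. Summed counts were 22 in KO and 2 in WT for Oscar, 22 and 14 for Pira2, and 0 and 3 for Sirpb1a. Blnk, an adaptor below ITAM receptors, was lower by the test (-0.92, edgeR FDR 0.0460), a call lost without any of KO 2, KO 3, WT 1 or WT 2 (FDR 0.322, 0.115, 0.183 and 0.143). Blnk was not called by the DESeq2 Wald test (FDR 0.147), limma-voom (0.0521), with nuclear genes only (0.0507) or with total counts (0.312) either. Tyrobp, the ITAM adaptor DAP12, had a change of -0.68 with an FDR of 0.0557, and its KO libraries were all below its WT libraries. It was called lower with the 6 libraries as separate samples (FDR 0.0236), by limma-voom (0.0429) and without KO 1 (0.0467). Ppp3ca, a calcineurin catalytic subunit and the most abundant gene of the list per length, was at 27.1 ± 1.06 CPM in KO and 29.2 ± 2.26 in WT (SD, n = 2). In this list the summed level was 68.0 to 71.7 CPM in KO and 71.6 to 79.7 in WT.

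Transcription factors that promote or restrain osteoclasts moved in both directions, 2 higher and 3 lower of 17 tested, with a median of -0.26. Irf8, a factor that holds back osteoclast formation, rose by 1.11 (edgeR FDR 0.000794): the KO libraries had 190, 191 and 123 counts and the WT libraries 58, 34 and 61. Fos, the AP-1 gene in the study's title, fell, with 30, 43 and 21 counts in the KO libraries and 90, 35 and 66 in the WT libraries (-1.65, FDR 0.0015). Fosl2 was the other gene to rise, and Pparg and Rbpj the others to fall, Pparg with an FDR of 0.00994 that was 0.0826 without KO 2, 0.063 with the DESeq2 Wald test and 0.376 with total counts. Jund, the most abundant of the list per length, was not called (-0.40, FDR 0.191), except with no filter on low counts (-0.38, FDR 0.018). Nfatc1 was at 6.92 ± 0.586 CPM in KO and 6.52 ± 1.33 in WT (SD, n = 2). With the 6 libraries as separate samples 6 genes of this list were lower, and with the DESeq2 Wald test 1. With total counts and no factors the list had 5 higher and 1 lower.

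The list of CSF1R and its effectors had 2 of 15 tested genes higher and 3 lower, with a median of -0.051. Besides Csf1r, the genes that fell were Rac2, a GTPase of blood cells, and Ptpn6, a phosphatase of blood cells. Cbl and Cblb, ubiquitin ligases known to restrain receptor signals, rose, Cblb by 0.80 (edgeR FDR 0.00599). Rac1, the widely expressed GTPase and the most abundant of the list per length, was at 51.4 ± 0.239 CPM in KO and 45.5 ± 1.21 in WT (SD, n = 2) and was not called. Without KO 2 this list had 0 higher and 1 lower, and Cblb had an FDR of 0.0691. With total counts and no factors it had 9 higher and 1 lower.

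Of 9 genes for other partners of RANKL and OPG 1 rose and 1 fell, with a median of 0.089. Adam10, a sheddase, had a change of -0.42 (edgeR FDR 0.0203), and Vwf, an OPG-binding protein of endothelium, rose by 0.35 (FDR 0.0463). Without KO 2 neither was called (FDR 0.154 and 0.317). The DESeq2 Wald test did not call them either (FDR 0.096 and 0.196), nor limma-voom Vwf (FDR 0.0535), and with total counts Adam10 was at 0.13 (FDR 0.413). Adam10 was also lost without WT 3 (FDR 0.0508), and Vwf without KO 3, WT 1 or WT 2 (FDR 0.143, 0.0905 and 0.0827). Mmp14, a membrane protease that can release RANKL, was at 14.9 ± 0.706 CPM in KO and 13.99 ± 1.40 in WT (SD, n = 2). Lgr4, an additional RANKL receptor, was at 2.23 ± 0.287 and 2.27 ± 0.135 CPM.

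Cytokine and hormone inducers of RANKL had 2 of 21 tested genes higher and 3 lower, with a median of -0.13. Osmr, the oncostatin M receptor subunit, rose by 0.91 (edgeR FDR 0.000343), with 414, 518 and 409 counts in the KO libraries and 184, 136 and 148 in the WT libraries. Lifr, its relative, also rose. Runx2, a transcription factor of osteoblasts, fell by 1.39 on the log2 scale (FDR 0.000318), with 57, 59 and 57 counts in the KO libraries and 123, 83 and 80 in the WT libraries. The steroid receptor genes Esr1 and Nr3c1 were the others to fall. Esr1 overlapped between the groups, with WT 3 at 0.893 CPM, below KO 2 at 0.948 and KO 3 at 0.910, and Nr3c1 did not overlap. With the DESeq2 Wald test this list had 2 higher and 2 lower, and with the 6 libraries as separate samples 2 and 5. With total counts and no factors it had 9 higher and 1 lower. Il11ra1, the receptor subunit for interleukin 11 and the most abundant of this list per length, was not called (-0.26, FDR 0.139), except with the 6 libraries as separate samples (FDR 0.0398). The classical inflammatory inducers were near the limit of detection: Il6 had counts in WT 3 alone (3), Tnf in WT 1 alone (2), and Il1b had 4 in KO 1 and 2 in WT 1. These genes were too low to test.

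Of 15 tested genes for Wnt and other signals linked to OPG 2 rose and 1 fell, with a median of -0.10. Lrp5, a Wnt co-receptor of bone, rose by 1.24 (edgeR FDR 1.26e-05), with 737, 845 and 725 counts in the KO libraries and 260, 161 and 209 in the WT libraries. Tgfbr1 rose as well (edgeR FDR 0.0273), but its call was lost with the DESeq2 Wald test, where Lrp5 was the only gene of the list called higher. Ctnnb1, which encodes β-catenin and was the most abundant of the list per length, had a change of -0.43 (FDR 0.0260), a call lost without KO 2 (FDR 0.44) and with total counts, where it was at 0.12 (FDR 0.429). Among other ligands that regulate osteoclasts 3 of 16 tested genes rose and 1 fell, with a median of 0.014. Efnb2 (ephrin-B2) rose by 0.90 (FDR 0.000255), as did Ccl9, a chemokine of osteoclasts, and Vegfa. Il33, an alarmin cytokine, fell by 0.96 on the log2 scale (FDR 0.000255). Cxcl12, the most abundant of these per length, was at 42.3 ± 0.00529 CPM in KO and 46.3 ± 3.28 in WT (SD, n = 2).

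**Figure D4:**
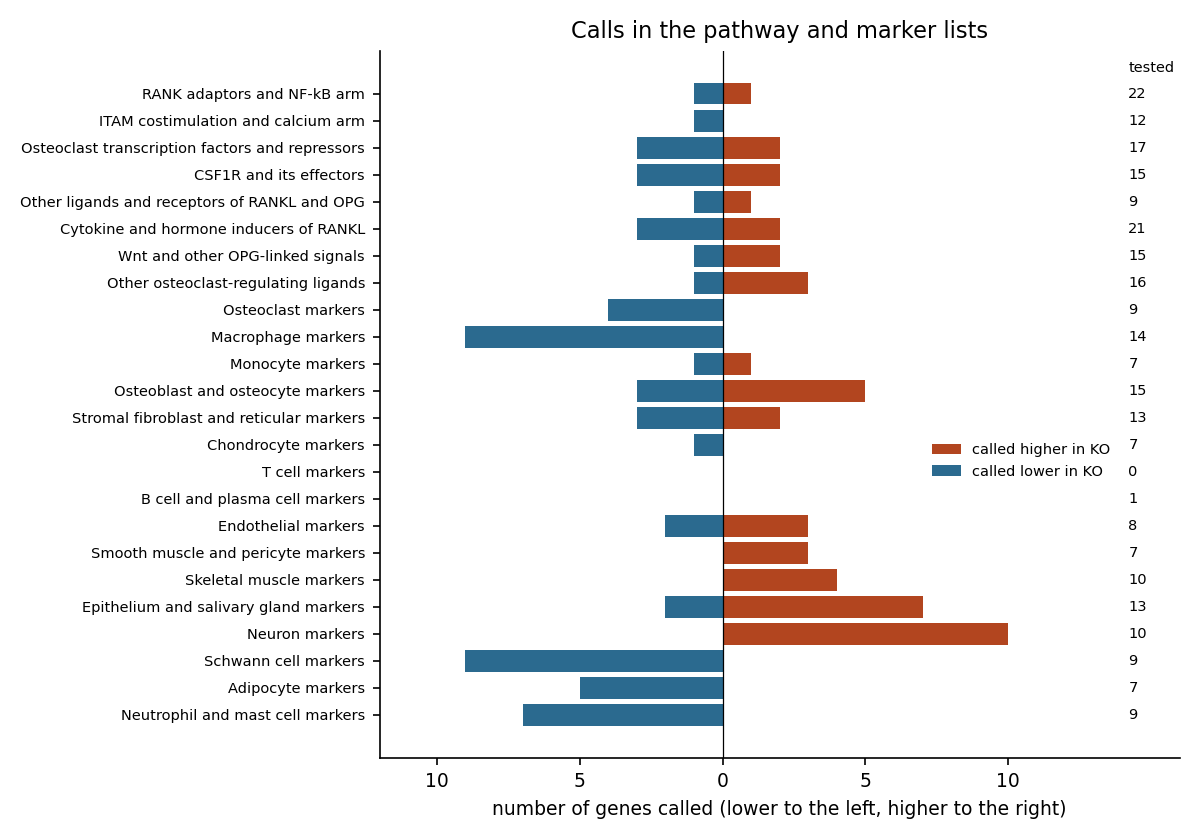
Number of genes called higher (right, red) and lower (left, blue) in KO in the 8 pathway lists and 16 marker lists, with the number tested in each list at the right edge. Pathway lists hold at most 3 calls in either direction, while macrophage and Schwann cell markers hold 9 lower calls each and neuron markers 10 higher calls.

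Markers of the cells that make or receive these signals were checked in the same libraries. Osteoclast markers had 4 of 9 tested genes lower (Acp5, Ctsk, Mmp9 and Car2) and none higher, 2 lower without KO 2, with a summed level of 34.0 to 35.7 CPM in KO and 44.1 to 46.3 in WT. With the DESeq2 Wald test 2 osteoclast markers were lower, and with total counts and no factors 2 were lower and 3 higher. With the 6 libraries as separate samples 4 were lower and 1 higher. Dcstamp, Ocstamp, Oscar and Siglec15 were too low to test and went both ways. Oscar had 7, 7 and 8 counts in the KO libraries and 0, 0 and 2 in the WT libraries. Ocstamp summed to 4 counts in KO and 0 in WT, Dcstamp to 2 and 8, and Siglec15 to 0 and 4. Osteoblast and osteocyte markers had 5 of 15 higher and 3 lower, and Bglap, the osteocalcin gene, was at 44.9 CPM in KO and 14.6 in WT. Stromal fibroblast markers had 2 of 13 higher and 3 lower, chondrocyte markers 0 of 7 higher and 1 lower, monocyte markers 1 of 7 higher and 1 lower, endothelial markers 3 of 8 higher and 2 lower, and smooth muscle markers 3 of 7 higher. Without KO 2 there were 0 smooth muscle markers higher, 1 stromal marker lower, and 2 endothelial markers higher and 1 lower. With total counts and no factors 7 smooth muscle, 9 stromal and 6 endothelial markers were higher. Bone and synovial genes were thus present, with Prg4 (lubricin) at 46.0 CPM in KO and 11.3 in WT, while cartilage was poorly represented, with Col2a1 at 1.25 and 1.47 CPM.

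Lymphocytes can supply RANKL and OPG, and those of their markers that are in the count table had very few counts. The T cell markers Cd3e, Cd8a, Cd8b1, Trac and Trbc2 and the B and plasma cell markers Ighm, Igha and Igkc are absent from it. The sums below leave these genes out, so they do not measure how many lymphocytes were present. None of the T cell markers passed the filter, and their summed level was 0.257 to 0.556 CPM in KO and 0.116 to 0.480 in WT. B and plasma cell markers had 1 tested gene, which was not called, at a summed 0.379 to 0.876 CPM in KO and 0.436 to 0.854 in WT. Markers of other tissues in the dissection were called in larger numbers. Epithelial and salivary gland markers had 7 of 13 genes higher, all salivary gland genes (Bpifa2, Dcpp1, Dcpp3, Smr3a, Amy1, Car6 and Prol1). The 2 lower were the epithelial genes Krt5 (-0.49) and Cdh1 (-0.91), and Krt8, Krt14, Krt18 and Epcam were not called. The list summed to 527 to 553 CPM in KO and 62.7 to 67.8 in WT. Bpifa2 alone averaged 266 CPM in KO and 21.2 in WT. All 10 tested neuron markers were higher (35.4 to 40.1 against 5.72 to 8.15 summed CPM) and all 9 Schwann cell markers lower (486 to 502 against 1425 to 1462). Skeletal muscle had 4 of 10 higher (1 without KO 2, 10 with total counts), adipocytes 5 of 7 lower, and neutrophils and mast cells 7 of 9 lower. The part of these shifts in the values of the members was not tested.

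The most abundant markers of the lists were compared too. Ctsk, the osteoclast protease cathepsin K, was at 6.52 ± 0.877 CPM in KO and 9.07 ± 0.385 in WT (SD, n = 2; -0.47, edgeR FDR 0.0328), and it was no longer called when KO 2 or WT 2 was left out (FDR 0.37 and 0.0809), by the DESeq2 Wald test (0.146) or with total counts (0.659). Lyz2 (macrophages) averaged 22.9 CPM in KO and 42.5 in WT and S100a9 (neutrophils) 1.37 and 5.10, both called lower. Bpifa2 (salivary gland) averaged 266 CPM in KO and 21.2 in WT, Uchl1 (neurons) 8.59 and 2.05, Tnnt3 (skeletal muscle) 1223 and 801, and Acta2 (smooth muscle) 47.6 and 34.95, all called higher. The leading markers of stroma, vessels and cartilage were not called: Dcn (fibroblasts) averaged 109 CPM in KO and 119 in WT, Egfl7 (endothelium) 64.3 and 62.2, and Comp (cartilage) 6.02 and 7.09. F13a1 (monocytes) at 11.67 and 11.68 CPM, Fabp4 (adipocytes) at 319 and 338, and Jchain (plasma cells) at 0.251 and 0.378 were not called either. A single marker does not stand for its list. Of the adipocyte markers 5 of 7 were lower and none higher, and of the monocyte markers 1 of 7 was higher (Ly6c2) and 1 lower (Plac8).

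Pearson's r of log2 CPM between pairs of members ranged from -0.67 (Tnfsf11 and Tnfrsf11b) to 0.65 (Tnfrsf11a and Csf1). It is a description over libraries of which 2 pairs were alike within sampling noise in the median gene. The mean variance ratios of these pairs, 1.18 (KO 1 and KO 3) and 1.08 (WT 2 and WT 3), were above that of sampling alone. The genes most like each member, among the 10742 (10741 for Csf1 and Il34) nuclear genes of at least 1 CPM, had r of 0.97 or more. They were Urb1, Fam71e1 and Gtf2e1 for Tnfsf11 (r of 0.98 each) and Skil, Grpel2 and Btrc for Tnfrsf11a (0.995, 0.981 and 0.97). For Tnfrsf11b they were Brd1, Pik3r4 and Usp45 (0.998, 0.994 and 0.993), for Csf1 Mmgt2, Jade1 and Pde6d (0.997, 0.995 and 0.985), and for Il34 Smg9, Erf and Ubtf (0.988, 0.983 and 0.976). With 6 libraries many genes reach such values: 278 genes had an r over 0.9 with Tnfrsf11b and 45 to 93 with each of the others.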

How the data were processed

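RNA of joint tissue was sequenced after mRNA isolation in 6 libraries. The values are raw counts, whole numbers for each gene symbol, which the authors deposited as 1 table without normalization. HISAT2 2.1.0 and StringTie 2.1.5 stand in the submitters' processing notes, with mm39 as genome build; the sources used here do not state the annotation, the strand setting or the handling of shared reads. Genes at 2 counts outnumbered genes at 1 count 4.69 to 5.06 times, so a read pair appears to give 2 counts.

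Groups and replicate numbers came from the titles. Libraries of a group with a median ratio of observed to counting variance under 1.1 (nuclear genes of at least 20 summed counts) were summed. The labels name no separate animals; p-values therefore cover only the spread between these samples, and that spread may be technical. Genes were filtered with filterByExpr (minimum count 10) and tested across all genes with edgeR 4.0.16 (R 4.3.3, TMM, robust quasi-likelihood). The fit was also run on simulated nuclear genes with independent counts and a common dispersion. Those counts were not doubled per read pair, so the run does not check the fit for counts like these. SE is the absolute change over the square root of F. DESeq2 1.42.0 and limma 3.58.1 were alternatives. Transcript lengths and overlaps came from GENCODE M21, a different build, so no coordinates are given.

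The members and the 24 lists were chosen with earlier results of these data known. Genes were named by rule: from each pathway list the 2 of smallest p and the most abundant per length, from each marker list the most abundant (1 of these is not reported here), and for each member the 3 of highest r (log2 CPM, prior count 2); other genes named beside them (among them Traf6, Lgr4, Fosl2, Pparg, Rbpj, Nfatc1, Rac2, Ptpn6, Cbl, Lifr, Esr1, Nr3c1, Il6, Tnf, Il1b, Tgfbr1, Ccl9, Vegfa, Acp5, Mmp9, Car2, Prg4 and Col2a1) were taken after their values were seen.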

Additional observations from a re-analysis of the deposited data

How the results depend on the processing

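The members' estimates and calls were recomputed in 14 other settings (8 for Tnfsf11), and none was called except Tnfrsf11b with total counts and no factors (1.56). That scaling, added after the data had been seen, reversed Tnfrsf11a (0.33), Csf1 (0.21) and Il34 (0.39), and also Ppp3ca (0.44), Jund (0.14), Adam10 (0.13), Il11ra1 (0.29), Ctnnb1 (0.12), Cxcl12 (0.42) and Ctsk (0.085). It called 7731 genes, 7345 higher and 386 lower, and the median of all genes moved to 0.54. The DESeq2 Wald test called 1634 genes, 738 of them lower; the cause was not tested. Leaving out 1 library gave 1149 to 2434 calls against 2580 (616 to 1348 higher and 533 to 1187 lower), the lowest without KO 2, where KO is 1 sample that is assumed to vary like the WT samples. Over the same omissions Il34 ranged from -0.22 to 0.031 and the Csf1 to Il34 log2 ratio from -0.39 to 0.039, reversing without WT 1 and without WT 2 respectively. The Tnfsf11 to Tnfrsf11b log2 ratio kept its sign, at -2.49 (without WT 1) to -0.76 (without WT 3). The r of the 15 most alike genes was 0.877 to 0.999 without 1 library.

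The replicate block, fitted on 6 separate libraries, called 2941 genes (3452 without the block) and none of the 4 members it could test. Same-numbered libraries did not deviate together: r of their deviations was -0.033, -0.089 and 0.031. Of 48 list counts, 31 moved by over 1.5 times with total counts and no factors, 18 without KO 2 and 10 with the DESeq2 Wald test. Depth limits Tnfsf11, Tnfrsf11a and Tnfrsf11b most, with 48, 96 and 86 counts over the 6 libraries.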
